A study of Homo sapiens with 6 samples.

Results

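Circular RNAs (circRNAs) made from antisense transcripts, long intergenic noncoding RNAs, microRNA host genes and clone-named loci were examined in the human bronchial epithelial line BEAS-2B, which is immortalised. They were chosen by the name of the host gene: names that start with LINC or MIR, carry an -AS number or -IT, end in HG, or are clone names with a full stop, together with the pseudogene GUSBP1 and without PVT1 and CDKN2B-AS1. The choice gave 67 of the 9857 listed circRNAs, from 50 of 3742 host genes on 21 chromosomes. The tested cells had been kept in 2.0 µM cadmium for 20 weeks and the controls at 0.0 µM for the same time, with 3 libraries of RNase R-treated total RNA in each group; exposure began 6 hours after seeding and cells were passaged every 3 days. All groups are the same line, and the labels do not say whether replicate libraries stem from different cultures, so each p-value measures a spread between libraries that may be technical.

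The label of noncoding RNA held for most of these hosts but not for all. Of the 50 hosts, GENCODE 29 gives 17 as antisense, 10 as lincRNA and 6 as processed transcripts, with 1 sense-overlapping gene and 1 locus of the provisional type TEC. A further 10 hosts, with 13 circRNAs, are pseudogenes, and 5 clone-named hosts, with 6 circRNAs, are annotated as protein-coding. The pseudogenes include TP73-AS1, SRP54-AS1 and CRYM-AS1, of the unitary type, which count here as antisense hosts by name. The deposited host name was a dash for most of them: 7 circRNAs of 6 hosts qualified by the deposited name, and 60 circRNAs of 44 hosts, FLG-AS1 and GUSBP1 among them, were named here through the deposited gene identifier in GENCODE 29.

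A circRNA forms when the splice donor at the end of an exon is joined back to the acceptor of an exon upstream, which leaves a closed ring that the exonuclease RNase R does not degrade. The read across that back-splice junction is the unit counted here. Antisense transcripts are read from the strand opposite a named partner gene, and microRNA host genes carry the hairpins of microRNAs in their primary transcripts. Transcribed pseudogenes of the unprocessed type are copies of coding genes that still give spliced RNA.

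The junctions of the 3 hosts that the results turn on are shown first, since they show which splice sites each circle shares with the next. Each line gives the last 20 bases of the donor exon in lower case and the first 20 bases of the acceptor exon in capitals, 5′ to 3′, from GENCODE 29 transcripts on GRCh38. FLG-AS1 is the antisense transcript across FLG, the gene of the epidermal barrier protein filaggrin; GUSBP1 is a pseudogene of GUSB, the lysosomal enzyme beta-glucuronidase; AC006001.3 is a transcribed pseudogene on chromosome 7.
FLG-AS1 novel_circ_0016395 (chr1:152314906-152335439, plus strand): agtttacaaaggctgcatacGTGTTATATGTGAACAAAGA
FLG-AS1 novel_circ_0016394 (chr1:152314624-152335439, plus strand): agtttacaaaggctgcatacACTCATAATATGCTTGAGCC
FLG-AS1 novel_circ_0016388 (chr1:152248895-152251758, plus strand): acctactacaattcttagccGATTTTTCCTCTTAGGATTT
FLG-AS1 novel_circ_0016400 (chr1:152332583-152341210, plus strand): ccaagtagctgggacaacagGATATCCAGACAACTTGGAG
GUSBP1 novel_circ_0031497 (chr5:21491321-21497196, plus strand): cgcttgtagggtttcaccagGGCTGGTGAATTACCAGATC
GUSBP1 novel_circ_0031498 (chr5:21491321-21501826, plus strand): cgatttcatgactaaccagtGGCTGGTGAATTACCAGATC
AC006001.3 hsa_circ_0007417 (chr7:66573385-66576932, minus strand): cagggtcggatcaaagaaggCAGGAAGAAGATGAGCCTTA
AC006001.3 novel_circ_0035845 (chr7:66573385-66576929, minus strand): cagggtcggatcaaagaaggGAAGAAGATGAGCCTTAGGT
AC006001.3 novel_circ_0035843 (chr7:66554585-66576932, minus strand): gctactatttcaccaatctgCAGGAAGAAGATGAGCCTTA

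The capitals of both GUSBP1 lines are the same, so its circles share an acceptor and differ in the donor side. For novel_circ_0031498 that side is the end of exon 7 of 7 in the transcript used, which has no annotated splice donor there. The lower-case stretch of novel_circ_0016395 and novel_circ_0016394 is the same, so these FLG-AS1 circles share a donor and differ in the acceptor; they are also the FLG-AS1 circles whose span overlaps FLG on the other strand. In AC006001.3 the leading pair share a donor, and their acceptors lie 3 bases apart. The longer ring of this pair has 344 spliced bases and the shorter 341 in the deposited annotation.

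The libraries held 133185, 135686 and 160248 junction reads with cadmium and 225769, 137919 and 165352 in the controls. Control replicates 1 and 3 stood apart in the junction share over all loci, the part of the reads at a circRNA locus that cross the junction (2 × junction reads over 2 × junction reads plus non-junction reads). It was 29.98%, 31.7% and 30.3% with cadmium and 46.1%, 29.2% and 48.9% in control replicates 1, 2 and 3. For the hosts named by rule, log2 fold changes that moved by more than 1.5 times without these libraries are given below also without them, which leaves control replicate 2 alone, assumed to vary like the cadmium libraries. In RNA from whole cultures, fewer cells that make a circRNA and less of it per cell cannot be told apart, and intervals on shares of reads cover counting error only.

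The circRNAs of these hosts took a small part of the signal. They drew 0.686%, 0.706% and 0.850% of junction reads with cadmium (95% Wilson intervals 0.643 to 0.732, 0.663 to 0.752 and 0.806 to 0.896) and 0.699%, 0.731% and 0.726% in the controls. The groups overlapped, with means of 0.747% ± 0.0893 with cadmium and 0.718% ± 0.0174 in controls (SD of 3 libraries), and the high value of cadmium replicate 3 came with its high reads of AC006001.3. Without cadmium replicate 3 the difference in share changed sign, at -0.0222 percentage points against 0.0290 with all libraries. The number of the 67 circRNAs with any read was 57, 55 and 56 with cadmium and 61, 64 and 63 in the controls. Every cadmium library was below every control library in this count. The same held over all 9857 circRNAs, of which 8760, 8662 and 8844 had a read with cadmium and 9449, 8973 and 9106 in the controls. The cadmium libraries also held fewer junction reads than control replicates 1 and 3. Among the controls, replicate 2 had the fewest junction reads, 137919, with the most of the 67 detected and the fewest of all circRNAs. The part of depth in the difference between groups was not tested.

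A few hosts gave most of these reads. AC006001.3 alone held 27.0% of the 7019 member reads, FLG-AS1 13.5% and AC135050.2 9.96%, and the 10 hosts with the most reads held 76.5%. At the other end, 40 hosts had 1 listed circRNA each, and the median circRNA had 7 reads per library, against 6.67 for circRNAs of all other single hosts. FLG-AS1 had the most circles, at 6, followed by AC006001.3, TTN-AS1 and AC008543.1 with 3 each.

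**Figure D1:**
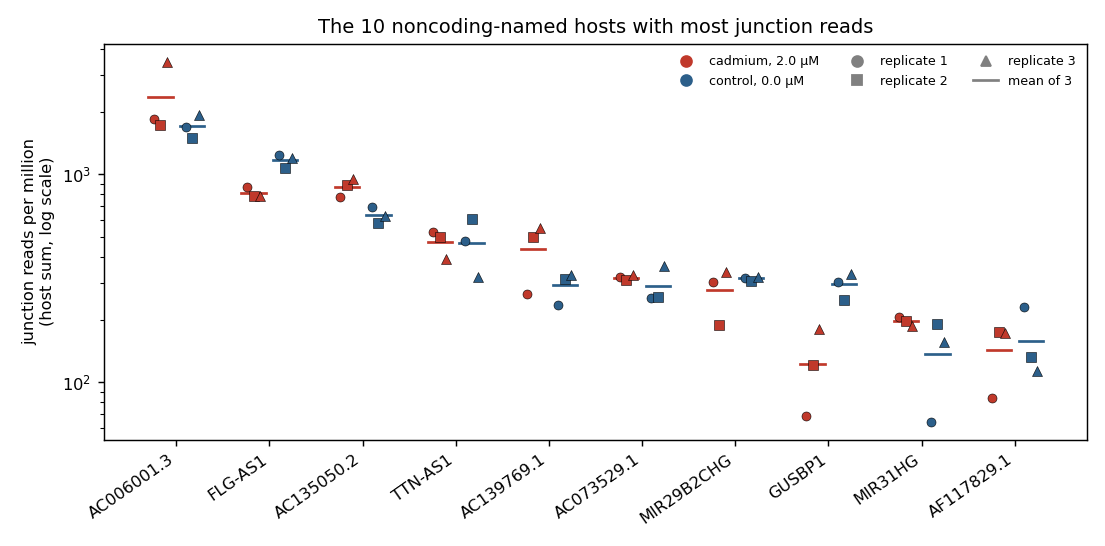
Junction reads in CPM, summed over the circRNAs of a host, on a log axis for the 10 hosts with the most reads; points are libraries (marker shape gives the replicate), bars are means of 3, cadmium left of control for each host. FLG-AS1 and GUSBP1 lie lower in every cadmium library than in any control library, AC135050.2 lies higher, and the other 7 hosts overlap.

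With cadmium, none of these hosts or circRNAs passed the test. The edgeR quasi-likelihood test with Benjamini-Hochberg adjustment over all features called 0 of the 34 hosts with enough reads and 0 of the 46 circRNAs with enough reads, where it called 0.233% of all 3008 host genes and 0.0809% of all 6182 circRNAs tested. At an unadjusted p under 0.05, 3 hosts were lower and 2 higher with cadmium, beside 6.58% lower and 5.88% higher over all hosts; among circRNAs 4 were lower and 3 higher, beside 3.88% and 4.32%. limma also called 0 of either. DESeq2 called 0 of the 46 circRNAs and 0 hosts, but gave an adjusted p for only 7 of the 34 hosts; the 27 without one include GUSBP1. The lowest adjusted p in edgeR was 0.186 for a host and 0.104 for a circRNA.

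The hosts lay slightly more often on the lower side. The log2 fold change, cadmium over control, was below 0 in 21 of 34 tested hosts with a median of -0.17, beside 50% and a median of 0.00 over all hosts tested. Without cadmium replicate 3 the count was 14 of 33 and the median 0.08, so this tilt rested on that library. The groups did not overlap in 3 tested hosts (8.82%), 2 of them lower and 1 higher with cadmium, beside 19.3% of all hosts tested (10% lower and 9.28% higher). Among the 46 circRNAs, the groups did not overlap in 5 (10.9%), 4 lower and 1 higher, beside 15.3% of all tested (7.78% lower and 7.52% higher). The 4 lower circRNAs are 8.70% of the 46, above the share over all circRNAs tested; the other shares are below theirs. The 34 tested hosts are those with enough reads, and the other 16 hosts had too few for a test.

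**Figure D2:**
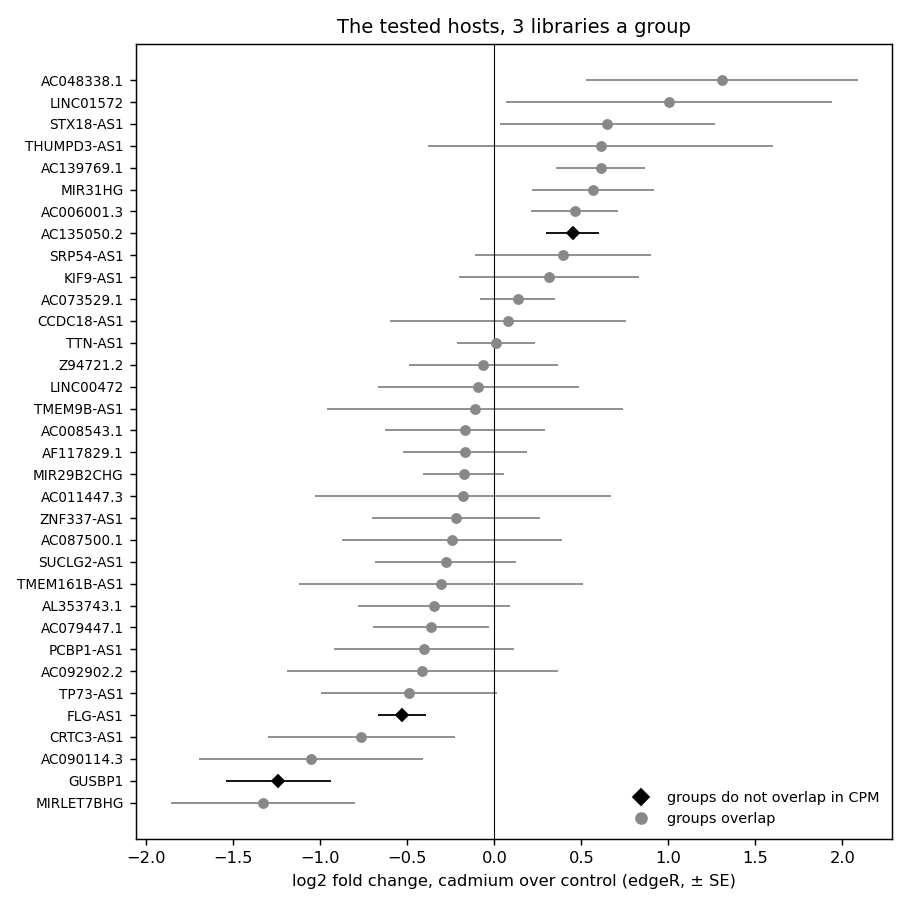
Log2 fold change of each of the 34 tested hosts, cadmium over control, from edgeR, with a standard error derived from its F statistic. Diamonds mark hosts whose 3 cadmium and 3 control libraries do not overlap in CPM. AC135050.2 at 0.45, FLG-AS1 at -0.53 and GUSBP1 at -1.24 are the diamonds, and most error bars reach across 0.

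Among the antisense hosts, FLG-AS1 had the lowest p. Its circles summed to 867, 784 and 783 CPM (junction reads scaled to a common library size, with TMM factors) with cadmium, against 1236, 1077 and 1197 CPM in controls. All cadmium libraries were below all control libraries. The log2 fold change was -0.53 ± 0.14 (SE; edgeR, n = 3 each, adjusted p = 0.186), and without control replicates 1 and 3 it was -0.43 (edgeR adjusted p = 0.626).

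The lower sum of FLG-AS1 lay mostly in its leading circle, novel_circ_0016395, the upper line of the sequences above. It had 47, 48 and 58 reads with cadmium and 152, 89 and 110 in controls. Its CPM averaged 355 (SD 12.96) with cadmium and 664 (SD 18.9) in controls over 3 libraries each, with a log2 fold change of -0.90 ± 0.17 (SE; edgeR adjusted p = 0.104). The authors' deposited table gives it a log2 fold change of -0.844, an adjusted p of 0.185 and a mark as significant. It passed the edgeR threshold under a stricter filter on low counts (log2 fold change -0.91, adjusted p = 0.0465).

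The other 5 FLG-AS1 circles overlapped between the groups. Together they had 67, 56 and 64 reads with cadmium and 116, 58 and 81 in controls, or 436 ± 51.1 CPM with cadmium and 477 ± 51.2 CPM in controls (SD of 3 libraries). Their log2 fold changes ran from -0.05 for novel_circ_0016400 to -0.56 for novel_circ_0016394, and the edgeR adjusted p-values lay between 0.908 and 0.982. novel_circ_0016395 therefore made up 41.2%, 46.2% and 47.5% of FLG-AS1 reads with cadmium and 56.7%, 60.5% and 57.6% in controls, a comparison made after the values were seen and given with no test. Its neighbour novel_circ_0016394, which ends at the same donor, had 5, 4 and 0 reads with cadmium and 8, 3 and 6 in controls, too few to read a direction from.

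**Figure D3:**
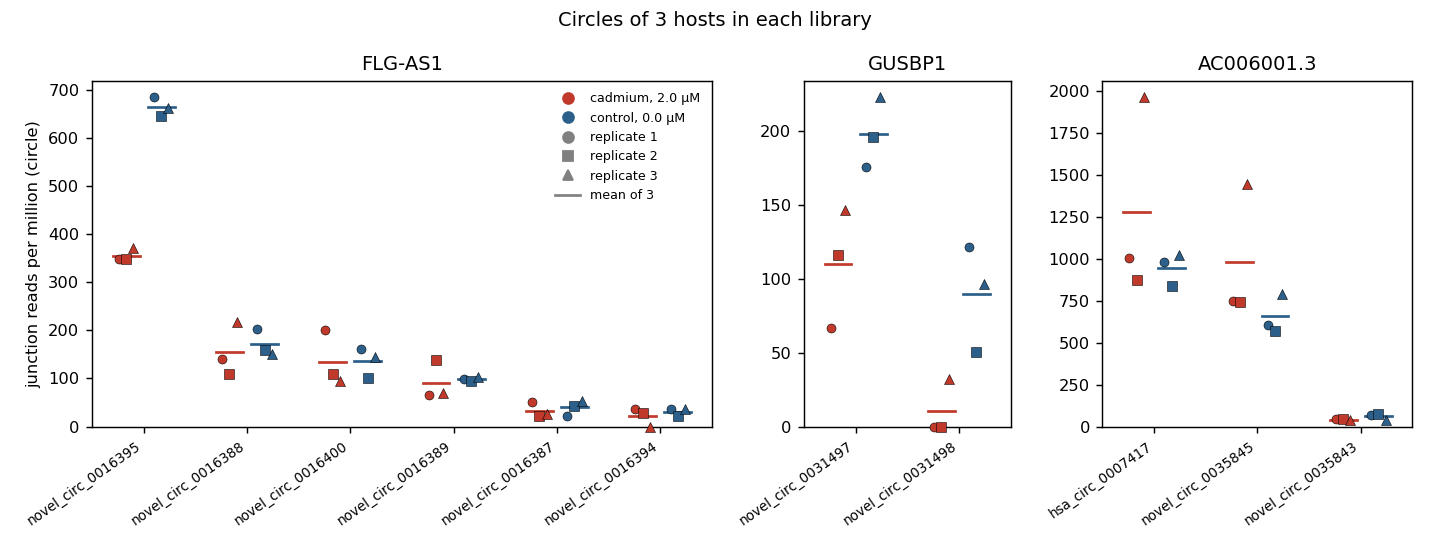
Junction reads in CPM for each circle of FLG-AS1, GUSBP1 and AC006001.3 in each library, cadmium left of control, with bars at the mean of 3; the vertical scale differs between the 3 panels. The leading FLG-AS1 circle sits near 355 CPM with cadmium and 664 CPM in controls while its other 5 circles overlap, both GUSBP1 circles are lower with cadmium, and cadmium replicate 3 stands above all other libraries in the leading AC006001.3 pair.

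No circRNA was listed for any of 13 genes of the epidermal differentiation cluster and its neighbours that were looked up, FLG, FLG2, HRNR, LOR and IVL among them, while FLG-AS1 gave 6. Across all antisense hosts, 7 of the 19 genes taken as partners from the name before -AS had a listed circRNA, and 6 were tested. Of these, 4 were higher and 2 lower with cadmium and 0 were called. None of the 6 overlaps a circle of its host on the other strand, so name alone pairs them. Among the 19, only FLG and TTN overlap such a circle. Of 5 coding genes that overlap a circle on the other strand, 1 had a listed circRNA and 0 were tested. The partner with the lowest p was TMEM161B, with 17, 25 and 34 reads with cadmium and 19, 13 and 15 in controls (log2 fold change 0.96 ± 0.32, edgeR adjusted p = 0.231). TMEM161B-AS1 had 4, 0 and 8 reads with cadmium and 8, 5 and 5 in controls (log2 fold change -0.31). The library kit marks strand, but no source used here says whether the authors' caller used it.

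TTN-AS1, antisense to the gene of the giant sarcomere protein titin, overlapped between the groups in its sum. It had 525, 497 and 391 CPM with cadmium and 480, 608 and 320 CPM in controls (log2 fold change 0.01 ± 0.22, edgeR adjusted p = 0.989), and the log2 fold change was -0.40 without control replicates 1 and 3. Its main circle hsa_circ_0004305 (chr2:178535732-178542361) had 50, 58 and 46 reads with cadmium and 90, 68 and 40 in controls. The smallest, novel_circ_0023047, had 8, 2 and 4 reads with cadmium and 0 in all 3 control libraries; it shares its donor with novel_circ_0023045, which had 11, 6 and 11 reads with cadmium and 14, 15 and 11 in controls.

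Of the other antisense hosts, 4 were among the 8 hosts with the lowest p in a direction, and these 4 had few reads. CRTC3-AS1, named for the gene of a CREB coactivator, had 10, 9 and 2 reads with cadmium and 19, 7 and 19 in controls (log2 fold change -0.77). The value ran from -1.16 to -0.27 when 1 library was left out, and it was -0.03 without control replicates 1 and 3. TP73-AS1, named for the p53 relative TP73, had 12, 5 and 4 with cadmium and 17, 8 and 12 in controls (log2 fold change -0.49, or -0.23 without control replicates 1 and 3 and -0.15 without cadmium replicate 3). STX18-AS1, named for a syntaxin of the endoplasmic reticulum, had 9, 3 and 9 with cadmium and 6, 5 and 5 in controls (log2 fold change 0.65, or 0.41 without control replicates 1 and 3). SRP54-AS1, named for a subunit of the signal recognition particle, had 7, 16 and 6 with cadmium and 10, 7 and 10 in controls (log2 fold change 0.39, or -0.22 without cadmium replicate 2). The groups overlapped in each of these 4 hosts, and the lowest of their edgeR adjusted p-values was 0.600.

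Of the pseudogene hosts that were tested, GUSBP1 had the log2 fold change farthest from 0 and the lowest p in edgeR. Its sum was 68.5, 121 and 180 CPM with cadmium and 304, 249 and 332 CPM in controls, with no overlap. The log2 fold change was -1.24 ± 0.30 (edgeR, n = 3 each, adjusted p = 0.186). Without control replicates 1 and 3 it was -1.02 (edgeR adjusted p = 0.626), and without cadmium replicate 3, the highest of the cadmium libraries, it was -1.64 with an edgeR adjusted p of 0.0287.

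Both GUSBP1 circles were lower in every cadmium library than in any control library. The shorter ring, novel_circ_0031497, had 9, 16 and 23 reads with cadmium and 39, 27 and 37 in controls (log2 fold change -0.83 ± 0.32, edgeR adjusted p = 0.494). The ring with the farther donor side, novel_circ_0031498, had 0, 0 and 5 reads with cadmium and 27, 7 and 16 in controls (log2 fold change -2.91 ± 0.77, edgeR adjusted p = 0.378). It was the circRNA with the second lowest p here, and its 5 reads with cadmium all came from replicate 3. These reads may come from more than 1 locus: both sides of the junction of novel_circ_0031498 occur exactly in GENCODE transcripts of 5 other genes (AC131392.1, AC138866.2, GUSBP2, GUSBP4 and GUSBP9), and those of novel_circ_0031497 in 3 others. GUSB itself, the coding parent, was at -0.11 on the log2 fold change scale (adjusted p = 0.887 in edgeR), and it was the only other listed host among the 11 family members looked up.

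AC006001.3 had the most reads of all 50 hosts, and its difference rested on 1 library. Its sum was 1849, 1733 and 3470 CPM with cadmium and 1697, 1502 and 1937 CPM in controls (log2 fold change 0.46 ± 0.25, edgeR adjusted p = 0.500). Cadmium replicate 3 stood above the other 5 libraries, which overlapped. The leading circle hsa_circ_0007417 had 136, 121 and 308 reads with cadmium and 218, 116 and 170 in controls, and novel_circ_0035845 had 101, 103 and 227 with cadmium and 135, 79 and 132 in controls. Without cadmium replicate 3 the log2 fold change of the host was 0.067, and that of hsa_circ_0007417 was -0.033, against 0.44 for this circle with all libraries.

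The use of the tandem acceptor in AC006001.3 varied little. The inner acceptor, that of novel_circ_0035845, took 42.6%, 46.0% and 42.4% of the pair's reads with cadmium and 38.2%, 40.5% and 43.7% in controls, including the library in which both circles were high. The circle from the farther donor, novel_circ_0035843, had 6, 6 and 6 reads with cadmium and 15, 10 and 7 in controls. Both sides of the hsa_circ_0007417 junction are also found in transcripts of RABGEF1, the gene of an exchange factor for the endosomal GTPase Rab5, and of AC005077.2 and AC027644.4. The donor side of novel_circ_0035845, the same stretch, is found in 5 other genes. Its acceptor side, which reaches 3 bases farther into the exon, is found in 0 other genes. Each side was matched over 20 bases, and bases beyond them were not compared.

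Other pseudogene hosts were not called. AC139769.1 on chromosome 19 had 266, 497 and 552 CPM with cadmium and 235, 315 and 326 CPM in controls (log2 fold change 0.61 ± 0.26, edgeR adjusted p = 0.341), with cadmium replicate 1 inside the control range. AC090114.3 had 2, 10 and 2 reads with cadmium and 12, 7 and 17 in controls (log2 fold change -1.05), and both sides of its junction also occur in TLK2, a chromatin-assembly kinase gene. Its value ran from -2.29 to -0.63 when 1 library was left out, the lowest being without cadmium replicate 2, and was -0.61 with control replicates 1 and 3 removed. AL353743.1 had 7, 15 and 6 reads with cadmium and 19, 12 and 13 in controls (log2 fold change -0.35, or -0.91 without cadmium replicate 2 and -0.04 without cadmium replicate 3). Both sides of its junction also occur in transcripts of the kinesin gene KIF27. In all, both sides of the junction were found in another gene for 14 of the 50 junctions built, and neither side for 28. Each side was searched on its own.

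The 3 microRNA host genes gave circles that lie outside the hairpins, so none of these rings contains the microRNA. The mature microRNAs are printed to show which of them share a seed. Sequences are from RefSeq (GRCh38.p14), with bases 2 to 8, the seed, in capitals.
hsa-miR-29b-3p of MIR29B2CHG: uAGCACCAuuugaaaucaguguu
hsa-miR-29c-3p of MIR29B2CHG: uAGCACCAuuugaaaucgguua
hsa-miR-31-5p of MIR31HG: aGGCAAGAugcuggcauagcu
hsa-let-7a-5p of MIRLET7BHG: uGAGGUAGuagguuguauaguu
hsa-let-7b-5p of MIRLET7BHG: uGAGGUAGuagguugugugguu

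MIR29B2CHG and MIRLET7BHG each carry a pair of microRNAs with a shared seed, and MIR31HG carries miR-31. The nearest hairpin lay 13406 bases from the circles of MIR29B2CHG, 2841 bases from that of MIRLET7BHG and 34823 bases from that of MIR31HG. MicroRNAs were not measured in these libraries.

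The microRNA hosts differed in level and direction, and none was called. MIRLET7BHG had 9, 2 and 5 reads with cadmium and 19, 20 and 10 in controls; its CPM averaged 38.5 ± 27.3 with cadmium and 98.9 ± 43.0 in controls (SD over 3 libraries; log2 fold change -1.33 ± 0.53, edgeR adjusted p = 0.323). The highest cadmium library was above the lowest control library. MIR31HG, which lies near the CDKN2A tumour suppressor locus, had 27, 26 and 29 reads with cadmium and 14, 26 and 25 in controls (log2 fold change 0.57 ± 0.35, edgeR adjusted p = 0.546), with control replicate 1 low. Without that library the value was 0.16, and without control replicates 1 and 3 it was 0.02. MIR29B2CHG had 40, 25 and 53 reads with cadmium and 69, 42 and 51 in controls (log2 fold change -0.18 ± 0.23, edgeR adjusted p = 0.784).

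The remaining hosts are intergenic or clone-named. AC135050.2 on chromosome 16, annotated as protein-coding, was the tested host higher in every cadmium library than in any control library: 776, 889 and 949 CPM with cadmium and 696, 586 and 627 CPM in controls (log2 fold change 0.45 ± 0.15, edgeR adjusted p = 0.238). Its circle hsa_circ_0006719 (chr16:31090775-31091342) is classed as intronic in the deposited annotation. AC073529.1, a lincRNA gene on chromosome X, had 42, 41 and 51 reads with cadmium and 55, 35 and 58 in controls (log2 fold change 0.13, or 0.29 without control replicates 1 and 3), and AF117829.1 had 11, 23 and 27 with cadmium and 50, 18 and 18 in controls (log2 fold change -0.17, or 0.11 without those controls). The 3 circles of the lincRNA gene AC008543.1 start at 1 shared acceptor and summed to 18, 15 and 4 reads with cadmium and 23, 13 and 16 in controls (log2 fold change -0.17, or -0.11 without those controls and 0.31 without cadmium replicate 3).

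Several circles of clone-named hosts lie within a coding gene on the same strand. This held for 8 circRNAs of 7 hosts, among them those of AC079447.1 within MRPL30, a mitochondrial ribosome protein gene, and AC048338.1 within VPS33A, a gene of endosomal fusion. No transcript of the coding gene in GENCODE 29 has both ends of any of these circles as exon bounds. The junction could be built for 7 of the 8, and for all 7 both sides also occur in transcripts of that coding gene, so these reads cannot be assigned to the clone-named host alone. AC079447.1 had 9, 17 and 19 reads with cadmium and 33, 19 and 19 in controls (log2 fold change -0.36, or -0.15 without cadmium replicate 1). AC048338.1 had 6, 10 and 10 with cadmium and 0, 4 and 8 in controls (log2 fold change 1.31 ± 0.78, edgeR adjusted p = 0.529), and the log2 fold change ran from 0.60 to 2.28 when 1 library was left out. LINC01572 had 6, 3 and 7 with cadmium and 0, 6 and 3 in controls (log2 fold change 1.004 ± 0.94, edgeR adjusted p = 0.693), and its log2 fold change was -0.23 without control replicates 1 and 3. In 1 case, AC008700.1, the circle lies on the strand opposite its deposited host.

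Some of the circRNAs were listed in 1 group only. Since each listed circRNA has reads in all 3 libraries of at least 1 group, one with 0 in a whole group had to be present throughout the other. Without a read in any cadmium library were novel_circ_0035788 of AC073107.1 (9, 4 and 3 control reads), novel_circ_0014637 of AC008543.1 (3, 2 and 4) and novel_circ_0039815 of LINC00894 (3, 2 and 2). Without a read in any control library were novel_circ_0023047 of TTN-AS1, above, and hsa_circ_0006199 of AC009053.1 (2, 2 and 6 cadmium reads). That is 4.48% and 2.99% of the 67, beside 2.13% and 0.930% of the other 9790 circRNAs, at counts too low for a fold.

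The authors' deposited table marks 8 of the 67 circRNAs as significant (11.9%), 5 of them lower with cadmium, beside 506 of all 9857 (5.13%). Among the 67, the mark followed the authors' unadjusted p and not an adjusted one. That unadjusted p was at most 0.049996 in the marked circRNAs and at least 0.0553 in the others. Among the 8 are novel_circ_0016395, novel_circ_0031498, novel_circ_0023047, novel_circ_0035788 and hsa_circ_0006199. No adjusted p is given there for novel_circ_0031498, novel_circ_0023047, novel_circ_0035788, hsa_circ_0006199 or novel_circ_0040398, all of them marked. Where the authors' deposited table gives an adjusted p for any of the 67, the lowest is 0.185.

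Some features that the choice by name did not use differed from those of other circRNAs with a single host, given as a description. Exonic by the deposited class were 56 of the 67 (83.6%), beside 96.3% of the others, and 11 were intronic (16.4%, beside 3.65%). Among those classed as intronic, hsa_circ_0007417, novel_circ_0035843 and novel_circ_0028486 had both ends on exon bounds of 1 GENCODE transcript of their host. For hsa_circ_0007417 the exons of that transcript summed to 344 bases, the deposited spliced length. The rest of the 11 had at least 1 end off the exon bounds. The intronic share is therefore by deposited class only. A new name rather than a database name was carried by 61.2%, beside 31.4%. The median deposited spliced length was 350 bases, beside 380, and the median genomic span 3627 bases, beside 6486. Both ends lay on GENCODE exon bounds in 52 of the 67 (77.6%), beside 92.8%. Of the 48 whose ends belong to 1 transcript, 26 started at exon 2, 0 at exon 1, and 2 reached the last exon, novel_circ_0031498 of GUSBP1 among them. In 21 of these 48 the exons of that transcript summed to the deposited spliced length. In the rest they did not, as for novel_circ_0016395 (319 bases, deposited 429) and novel_circ_0031497 (448 bases, deposited 188).

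The junction share of these loci was above that of the other loci in each library, given as a description with no test. Non-junction reads were reported in every library for 38 circRNAs, which are those with a junction read in all 6. The choice therefore used counts that enter the share, and the other circRNAs were chosen in the same way. Over these 38 the junction share was 72.0%, 68.4% and 70.4% with cadmium and 74.7%, 67.1% and 75.7% in controls. Over all other circRNAs with such values it was 29.9%, 31.6% and 30.2% with cadmium and 45.9%, 29.1% and 48.8% in controls. The difference averaged 35.5 ± 6.22 percentage points (SD, n = 6 libraries, which all measure the same loci) and ran from 26.9 to 42.1. Without AC006001.3, FLG-AS1 and AC135050.2 it was 32.2 ± 5.33 points.

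Between the groups the junction share of these loci overlapped. It averaged 70.3% ± 1.797 with cadmium and 72.5% ± 4.703 in controls (SD over 3 libraries each), a difference of -2.21 points that was 3.19 points without control replicates 1 and 3. Single circRNAs spread widely: pooled over libraries, the share was 25.6% for MIRLET7BHG hsa_circ_0008668 and 29.3% for AC006001.3 novel_circ_0035843, and 90.5% for the MIR31HG circle and 92.5% for that of STX18-AS1. Their median was 72.6%, and 30 of the 38 lay above the median of the others, 43.5%. Within FLG-AS1 it was 81.4% for novel_circ_0016395 and 37.2% for novel_circ_0016387.

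**Figure D4:**
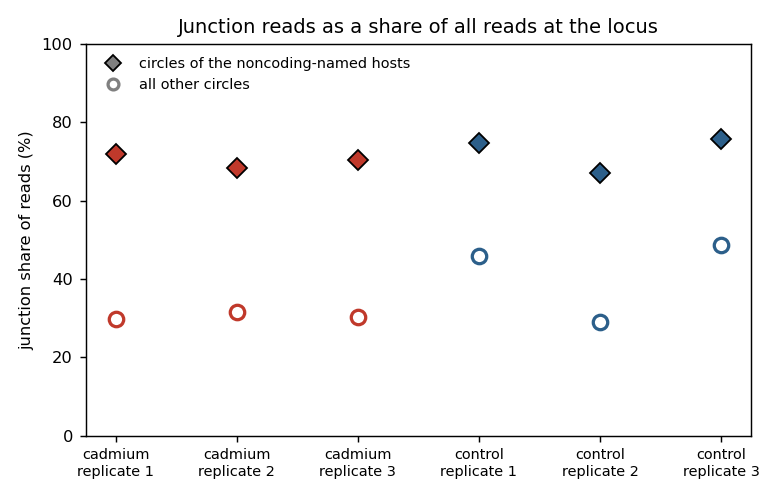
Junction share of the reads at circRNA loci in each library, in percent; diamonds are the 38 circRNAs of the noncoding-named hosts with values in every library, open circles all other circRNAs, red for cadmium and blue for control. The diamonds lie between 67.1% and 75.7% in all 6 libraries, while the open circles lie at 29.1% to 31.6% in 4 libraries and at 45.9% and 48.8% in control replicates 1 and 3.

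Long noncoding RNA hosts known by other names, looked up as a list of 60, had few listed circles: 4 of them that were tested were MALAT1, NEAT1, DLEU2 and SNHG12, 3 higher and 1 lower with cadmium, and 0 were called. MALAT1, the abundant nuclear speckle RNA, had 16, 17 and 49 reads with cadmium and 78, 43 and 61 in controls (log2 fold change -0.88, edgeR adjusted p = 0.248).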

How the data were processed

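Per the labels, total RNA was depleted of ribosomal RNA, digested with RNase R and made into strand-marking libraries. The authors' deposited count table gives whole back-splice junction reads for each circRNA in each library, and no value is 1. Each deposited TPM value is the count over the library total, with no length term, and served 1 alternative. The authors also deposited a comparison of the groups: mean normalised reads (signal), log2 fold changes and p-values, quoted only by that name. The submitters' processing notes list Bowtie, Bowtie2 2.2.8, DESeq 1.10.1 and hg19 without roles; which tool called circRNAs is not stated there. Positions follow GRCh38, counted from 1.

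Host names missing from the deposited table were read from GENCODE 29 by gene identifier. Counts per circRNA, and summed per host over circRNAs with 1 host, were tested in all 6 libraries with edgeR 4.0.16 (R 4.3.3; quasi-likelihood, TMM, filterByExpr with minimum count 5 and minimum total 15), Benjamini-Hochberg over all features, threshold 0.05. The code was tested on simulated counts. Members, gene lists and tests were chosen with earlier results of these data known. The hosts named are FLG-AS1 and GUSBP1, the 10 with the highest mean CPM, the 8 with the smallest p in each direction and those with 3 or more circRNAs; others were named after their values were seen. Replicate libraries were not copies of each other (chi-square over degrees of freedom 1.59 to 2.49 within groups). Alternatives were other size factors, filters, DESeq2 1.42.0, limma 3.58.1 on log2(TPM + 1), a replicate block and leaving out each library. Added after seeing the data were the junction ratio as a covariate, a fit without control replicates 1 and 3, and 2 other readings of the choice by name. Splice-site dinucleotides need a genome sequence and were not analysed here.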

Additional observations from a re-analysis of the deposited data

How the results depend on the processing

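Of the 43 hosts and circRNAs named by rule that could be tested, 24 kept the sign of the log2 fold change under every alternative run for them; 0 lost a call, since none had one. GUSBP1 passed the threshold without cadmium replicate 3, and novel_circ_0016395 under the stricter filter, where 1 circRNA of these hosts was called; the adjusted p of novel_circ_0016395 ran from 0.0465 to 0.766 over its alternatives and its log2 fold change from -0.96 to -0.87. Leaving out a library gave 0 to 1 called host among them. Over all features, calls numbered 5 circRNAs and 7 hosts; they were 2 and 1 with limma, 11 hosts with DESeq2, 3 circRNAs with the junction ratio as a covariate, 3 and 3 without control replicates 1 and 3, and 0 to 13 circRNAs and 3 to 13 hosts when 1 library was left out (0 circRNAs without control replicate 1). Hosts below 0 numbered 21 of 34, 32 of 50 with no filter and 13 of 19 with the stricter filter, in which the number tested changed. Including PVT1 and CDKN2B-AS1 moved the difference in share of junction reads to 0.0979 points, and leaving out control replicates 1 and 3 moved that in junction share to 3.19 points; the cause was not tested. By the deposited names alone (7 circRNAs) the difference in share was 0.0201 points.

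With the replicate number as a block, 0 of these hosts and circRNAs were called and 21 hosts lay below 0; no call changed. The labels do not say whether the numbers pair the libraries. The correlations of deviations ran from -0.0064 to 0.0443 between libraries with the same number and from -0.0301 to 0.0314 between the others. With so few reads per circRNA, these values cannot decide whether the libraries are paired.

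The sign changed for the hosts and circRNAs that follow. With 1 library left out, the log2 fold change ran from -0.21 to 0.22 for TTN-AS1, -0.35 to 0.028 for MIR29B2CHG, -0.37 to 0.22 for AF117829.1, -0.59 to 0.31 for AC008543.1 and -0.22 to 0.71 for SRP54-AS1. Among circRNAs it ran from -0.094 to 0.20 for hsa_circ_0001051, -0.30 to 0.69 for hsa_circ_0002576, -0.33 to 0.11 for hsa_circ_0004305, -0.30 to 0.085 for hsa_circ_0006827, -0.033 to 0.63 for hsa_circ_0007417, -0.48 to 0.050 for hsa_circ_0008587, -0.37 to 0.50 for novel_circ_0014638 and -0.62 to 0.60 for novel_circ_0014639. For the FLG-AS1 circles it ran from -0.74 to 0.025 for novel_circ_0016387, -0.49 to 0.040 for novel_circ_0016388, -0.54 to 0.034 for novel_circ_0016389, -1.18 to 0.030 for novel_circ_0016394 and -0.47 to 0.13 for novel_circ_0016400. With the junction ratio as a covariate and without control replicates 1 and 3 it was -0.34 and -0.40 for TTN-AS1, 0.037 and 0.11 for AF117829.1, -0.078 and -0.068 for hsa_circ_0001051, -0.10 and -0.048 for novel_circ_0014638, and 0.28 and 0.39 for novel_circ_0016400. Without those controls LINC01572 was at -0.23. With no filter, hsa_circ_0002576 was at -0.0018 and novel_circ_0014639 at -0.034; novel_circ_0014639 was at -1.30 with limma and -0.18 with the replicate block. The cause was not tested. The median circRNA of these hosts had 7 reads per library, and the part of depth in the lack of calls was not tested.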
